A study of Rattus norvegicus with 6 samples.

Results

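The rat miR-190 and miR-218 families were described in the hypothalamic arcuate nucleus (ARC) after nerve injury. Every listed miRNA whose name starts with rno-miR-190a, rno-miR-190b, rno-miR-218a or rno-miR-218b was taken, which gave 5 of the 562 mature miRNAs: rno-miR-190a-5p, rno-miR-190b-5p, rno-miR-218a-5p, rno-miR-218a-1-3p and rno-miR-218a-2-3p. The families were selected on the fall of their 5p strands in the injured rats. The difference between the groups is therefore given for the 5 miRNAs as a description, with no test. miR-190a-3p, miR-190b-3p and miR-218b are not analysed here.

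miRNAs of the ARC were sequenced in 6 libraries of Sprague-Dawley rats aged 8 to 10 weeks, on Day 14 after surgery. The study states that its rats were male unless otherwise specified. In 3 libraries the rats had a chronic constriction injury of the left infraorbital nerve (CCI-ION), made with loose silk ligatures, which models trigeminal neuropathic pain. In the other 3, the sham group, the nerve was exposed on one side but not tied. Both groups were anesthetized and operated, and the labels name no transgene or drug. The study's figure legend for the miRNA profiles counts more rats per group than there are libraries, and neither it nor the labels say whether rats were pooled or how they were assigned to libraries. For this reason spreads and p-values measure the variation between libraries, which may be technical.

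The deposited value, called a normalized count here, is a read count divided by a size factor of its library. The reads recovered from it summed to between 11115049 and 14313839 in the sham libraries and to between 8628309 and 11297551 in the CCI-ION libraries. The smallest listed value was worth 5 reads in every library, so that a 0 means fewer reads than this limit. A mean of at least 1 kept 555 miRNAs, including all 5 described here, and 4 of the 5 were above 0 in every library. Where 3 values of a group follow, they are those of replicates 1, 2 and 3 in this order.

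miRNAs are cut from hairpin precursors, and many hairpins lie inside protein-coding genes, from whose primary transcript they can be processed. Of the 2 strands of a hairpin, one usually enters the silencing complex as the guide, while the other, the passenger strand, is mostly degraded, and the guide finds target mRNAs mainly through its seed near the 5′ end. miR-218 is best known as a miRNA of motor neurons that is encoded inside Slit2 and Slit3, genes of secreted axon guidance factors. miR-190a is encoded inside Tln2, the gene of the cytoskeletal adaptor talin 2.

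The mature sequences are shown because the members are compared by seed and by base composition further on. They come from RefSeq (assembly GRCr8), are written 5′ to 3′, and carry the seed, bases 2 to 8, in capitals.
rno-miR-190a-5p: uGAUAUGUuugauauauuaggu
rno-miR-190b-5p: uGAUAUGUuugauauuagguu
rno-miR-218a-5p: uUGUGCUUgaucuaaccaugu
rno-miR-218a-1-3p: aAACAUGGuuccgucaagcac
rno-miR-218a-2-3p: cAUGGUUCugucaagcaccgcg

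miR-190a-5p and miR-190b-5p carry the same seed and are identical over their first 15 bases, and 3 single-base edits (substitutions, insertions or deletions) turn one into the other. Of the 512 listed miRNAs with a RefSeq sequence, no further one has this seed, and no other listed miRNA shares a seed with any of the miR-218a strands. The passenger strands of the 2 miR-218a hairpins differ in their seeds and share a run of 9 bases. G and C make up 22.7% of miR-190a-5p, 23.8% of miR-190b-5p, 38.1% of miR-218a-5p, 47.6% of miR-218a-1-3p and 59.1% of miR-218a-2-3p. The median over all miRNAs with a sequence was 47.8%, so that both miR-190 strands are poor in G and C.

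The hairpins were placed on the RefSeq gene models of GRCr8, a later assembly than the rn6 build in the submitters' processing notes. The hairpin of miR-190a at chr8:76732179-76732263, minus strand, lies within Tln2 on the same strand. That of miR-190b at chr2:177812461-177812538, plus strand, lies in no talin gene. It overlaps the start side of Tpm3, which encodes a tropomyosin, by 5 of its 78 bases on the same strand. For miR-190b an intronic origin therefore does not follow from these gene models. miR-218a-5p is made from 2 hairpins, one at chr10:20572523-20572632, plus strand, within Slit3 on the same strand, and one at chr14:66922348-66922457, minus strand, within the span of Slit2, whose strand was not given in the table used. The table lists gene spans without exons, so none of the hairpins was assigned to an intron here. The 5p sequence is identical from both hairpins, and only the passenger strands tell them apart: miR-218a-1-3p comes from the Slit2 locus and miR-218a-2-3p from the Slit3 locus. The mRNAs of Tln2, Tpm3, Slit2 and Slit3 were not measured in these libraries.

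miR-218a-5p was the most abundant of the 5. The sham libraries held 118755, 129085 and 123746 normalized counts of it, and the CCI-ION libraries 70985, 58881 and 65365. The groups did not overlap, and the lowest sham library stood 1.67 times above the highest CCI-ION library. The mean was 123862 ± 5166 (SD, n = 3) in sham rats and 65077 ± 6057 (SD, n = 3) in CCI-ION rats, a mean log2 difference (CCI-ION minus sham, on log2(normalized count + 1)) of -0.93. As a share of all reads, miR-218a-5p made up 1.03% ± 0.103 (SD, n = 3) in sham rats and 0.623% ± 0.0581 (SD, n = 3) in CCI-ION rats. It ranked 22 by level among the 555 miRNAs and 55 from the largest fall. Of the 18 other miRNAs whose mean level was within 2-fold of its own, none had a lower log2 difference, and their median was 0.13.

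miR-190b-5p was the higher of the miR-190 pair. Its normalized counts were 227, 160 and 174 after sham surgery, compared to 46.5, 15.8 and 56.0 after CCI-ION. All 3 CCI-ION libraries were below all sham libraries, with CCI-ION replicate 2 the lowest. These values rest on 193 to 206 reads in the sham libraries and on 13 to 52 reads in the CCI-ION libraries, and the exact Poisson 95% interval of 13 reads runs from 6.92 to 22.2 (counting error only). The CCI-ION mean was 21.1% of the sham mean, the log2 difference was -2.38, and without CCI-ION replicate 2 it was -1.84. It ranked 4 among the 555 miRNAs from the largest fall, and of the 81 others within 2-fold of its level none was lower.

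For miR-190a-5p, which shares this seed, the sham libraries gave 61.7, 34.9 and 74.2 normalized counts, while the CCI-ION libraries gave 7.44, 9.74 and 15.1. The groups again did not overlap, although the sham libraries spread over a wider range than those of miR-218a-5p, with a coefficient of variation of 35.2% against 4.17%. The reads behind it numbered 42 to 88 in the sham libraries and 8 to 14 in the CCI-ION libraries, and 8 reads have an exact Poisson 95% interval from 3.45 to 15.8. The CCI-ION mean was 18.9% of the sham mean, and the log2 difference of -2.29 ranked 6 from the largest fall. Of the 78 other miRNAs within 2-fold of its level, 1 was lower, miR-153-5p at -3.26.

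**Figure D1:**
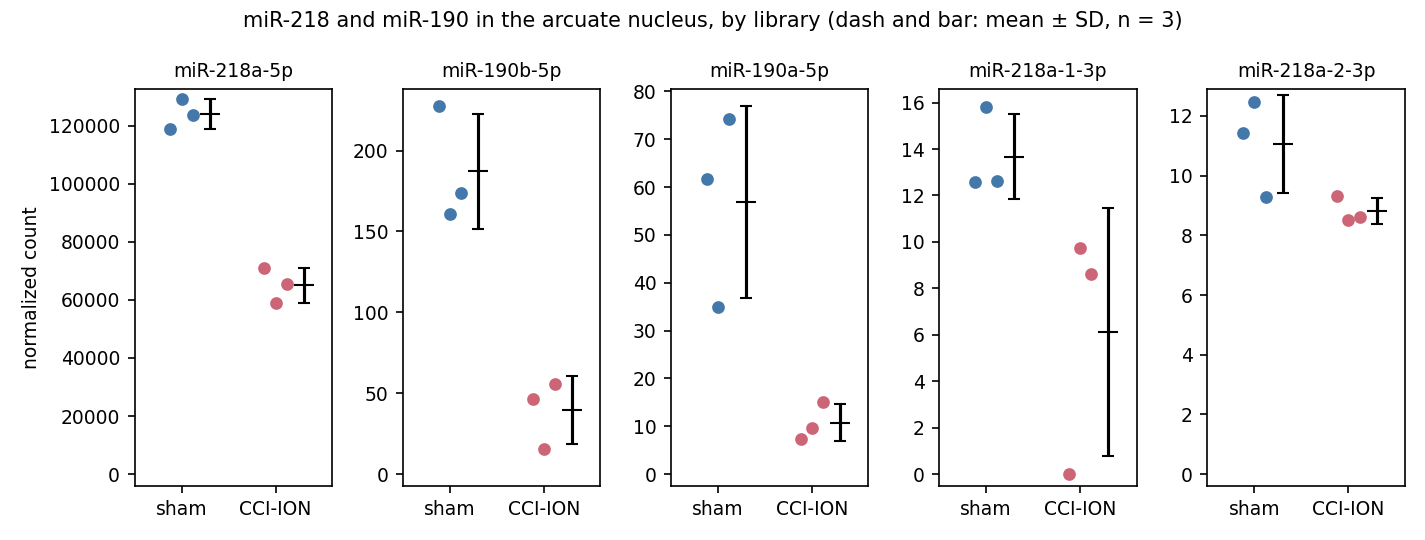
Normalized count of each miR-190 and miR-218 strand (y axis, linear, its own range in each panel) in sham and CCI-ION libraries. Each point is 1 library, and the dash and bar are the mean and SD of 3. The groups are apart for miR-218a-5p, miR-190b-5p and miR-190a-5p, whereas miR-218a-1-3p has 1 CCI-ION library at 0 and the groups of miR-218a-2-3p overlap.

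The passenger strands of miR-218a were close to the limit of the data. miR-218a-1-3p, from the Slit2 locus, had normalized counts of 12.6, 15.8 and 12.6 in the sham libraries, against 0, 9.74 and 8.61 in the injured ones. The groups did not overlap, but the log2 difference of -1.64 rests on the library listed at 0. Without CCI-ION replicate 1 it was -0.52, and with 2.5 reads in place of 0, an alternative chosen after seeing the data, it was -1.06. miR-218a-2-3p, from the Slit3 locus, had normalized counts of 11.4, 12.5 and 9.27 after sham surgery, with 9.30, 8.52 and 8.61 after CCI-ION. Here sham replicate 3 lay below CCI-ION replicate 1, and the log2 difference was -0.29. Each of these values stands for at most 19 reads, and a difference between the loci in their response was not tested.

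The log2 difference was below 0 for 5 of the 5 strands, against 51.2% of the 555 miRNAs tested. For 4 of the 5, every CCI-ION library was below every sham library, against 21.3% of all. Nothing is read from these counts, since the fall of the 5p strands chose the families.

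**Figure D2:**
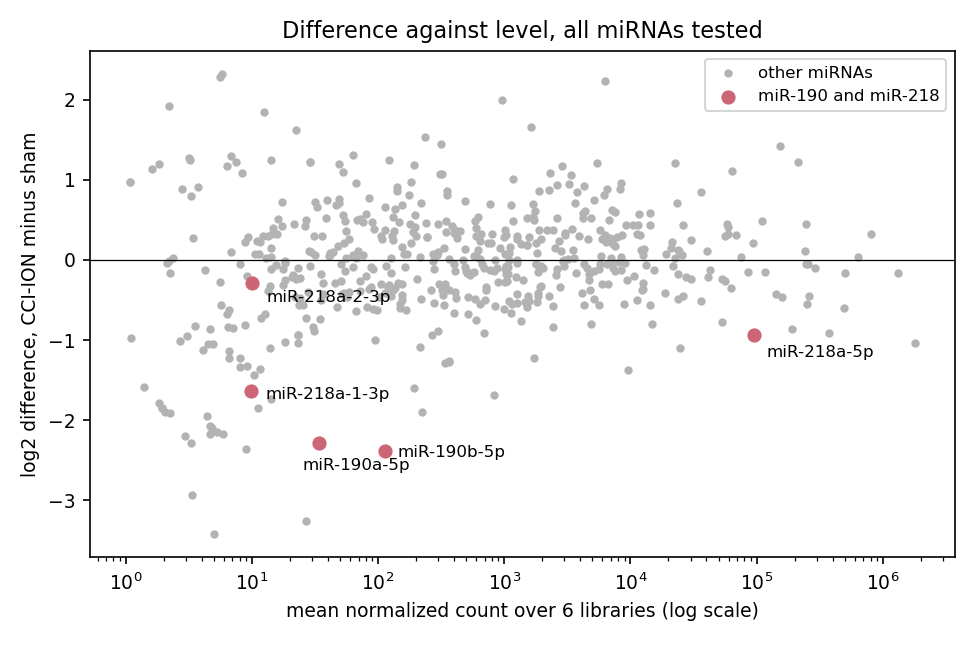
Log2 difference between CCI-ION and sham libraries (y axis) against the mean normalized count over 6 libraries (x axis, log scale), 1 point per miRNA tested. miR-218a-5p lies at the abundant end at -0.93, miR-190a-5p and miR-190b-5p at -2.29 and -2.38, with 1 of 78 and 0 of 81 other miRNAs of like level below them, and the miR-218a passenger strands among the miRNAs with few reads.

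Inside each library, miR-218a-5p was next compared with each passenger strand, the passenger strands with each other, and the miR-190 guides with each other. These comparisons do not use the contrast between the groups. The reads of miR-218a-5p come from both hairpins together, so its difference from a passenger strand is not that of a single hairpin. miR-218a-5p exceeded miR-218a-1-3p in 6 of 6 libraries, by 13.40 ± 1.35 (SD, n = 6) on the log2 scale (exact two-sided sign-flip test, p = 0.0312, Benjamini-Hochberg adjusted over 4 such tests 0.0417). This mean includes CCI-ION replicate 1, where the 3p strand is listed at 0 and the pseudocount sets the difference, and without it the mean was 12.86. It exceeded miR-218a-2-3p in 6 of 6 by 13.01 ± 0.376 (SD, n = 6), with the same exact p of 0.0312, which is the smallest that 6 libraries can give (adjusted 0.0417). Over all 6 libraries the passenger strands had 61 and 61 reads against 591350 reads of miR-218a-5p, or 0.0206% of all reads of miR-218a. The 5p strand was thus the strand recovered from these hairpins in both groups. No difference was detected between the passenger strands, with a mean log2 difference of -0.39 ± 1.46 (SD, n = 6) between miR-218a-1-3p and miR-218a-2-3p, 4 libraries higher and 1 equal, and an exact sign-flip p of 1. The sign of this mean rests on CCI-ION replicate 1, where miR-218a-1-3p is listed at 0, and without that library it was 0.21. This does not show that both loci gave equal amounts. In sham libraries alone the mean was 0.28, with miR-218a-1-3p the higher.

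As a description, the ratio of miR-218a-5p to miR-218a-2-3p was 10391, 10351 and 13347 in the sham libraries, while the CCI-ION libraries had 7629, 6908 and 7590. The groups did not overlap in this ratio, and its log2 mean was 13.33 ± 0.19 in sham and 12.69 ± 0.085 in CCI-ION libraries (SD, n = 3 each). With 7 to 15 reads of the passenger strand in each library, and a 5p strand chosen for its fall, no test was made.

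miR-190b-5p exceeded miR-190a-5p in 6 of 6 libraries, by 1.70 ± 0.668 (SD, n = 6) on the log2 scale (exact two-sided sign-flip test, p = 0.0312, adjusted 0.0417). The ratio of the pair was 3.69, 4.60 and 2.34 in the sham libraries, with 6.25, 1.63 and 3.71 in the CCI-ION libraries. In this ratio the groups overlapped. By level, the order was miR-218a-5p, miR-190b-5p, miR-190a-5p and then the passenger strands of miR-218a. In sham libraries miR-190a-5p, at 34.9 or more, lay above both passenger strands, which reached 15.8 and 12.5. In CCI-ION libraries its range of 7.44 to 15.1 overlapped those of both, 0 to 9.74 and 8.52 to 9.30.

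The 3 miRNAs most like each guide were named by Pearson's r of log2(normalized count + 1) over the 6 libraries, among 481 other miRNAs above 0 in every library. The measure is largely the difference between the groups and is given without a p. For miR-218a-5p they were miR-22-5p (r = 0.991), miR-433-5p (0.990) and miR-487b-3p (0.980). For miR-190b-5p they were miR-7b (r = 0.974), miR-7a-5p (0.972) and miR-384-3p (0.962). For miR-190a-5p they were miR-543-5p (r = 0.977), miR-3085 (0.969) and miR-338-3p (0.967). All 9 had log2 differences below 0, from -0.30 for miR-3085 to -1.68 for miR-384-3p. None was as low as those of the miR-190 strands.

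Other miRNAs inside protein-coding genes were taken from a list of 36, of which 27 lie on the same strand as a RefSeq gene. Of these 27, 3 were lower in CCI-ION rats and 1 was higher at an adjusted p under 0.05 (limma, Benjamini-Hochberg). Among all 555 miRNAs 3.42% were lower and 3.42% were higher, 19 in each direction, a split that became 9 lower and 42 higher with total-count scaling and 108 lower and 9 higher with upper-quartile scaling. The list's median log2 difference was -0.10, against -0.01 over all, and 18 of the 27 were below 0. Of all 192 other tested miRNAs on the same strand as a RefSeq gene, a wider set added after the values were seen, 5 were lower and 5 higher, 2.60% in each direction, with a median of -0.05 and 104 below 0. The lowest that passed was miR-98-5p, a let-7 family miRNA inside Huwe1, the gene of a ubiquitin ligase, which went from 13871 ± 1891 to 5346 ± 255 (mean normalized count ± SD, n = 3 each; log2 difference -1.37, standard error 0.14, limma adjusted p = 0.00969). miR-338-3p, an oligodendrocyte miRNA inside Aatk, passed at -1.27 (standard error 0.15, limma adjusted p = 0.0190). miR-107-3p, inside the pantothenate kinase gene Pank1, passed at -0.56 (limma adjusted p = 0.0450). miR-378a-3p, inside Ppargc1b, the gene of a coactivator of mitochondrial genes, was the only one of the 27 to pass as higher, at 1.21 (standard error 0.18, limma adjusted p = 0.0310). miR-340-5p inside Rnf130 and miR-33-5p inside the sterol regulator gene Srebf2 had log2 differences of 2.24 and -1.89 and did not pass (limma adjusted p = 0.192 and 0.169), and miR-33-5p was listed at 0 in 4 of the 6 libraries. At an unadjusted p under 0.05, 8 of the 27 were lower, 29.6% against 17.5% of all 555, and 3 were higher, 11.1% against 15.5%. Together these were 40.7% against 33.0% of all. With an intensity trend in limma 6 were lower after adjustment, 22.2% against 7.93% of all, and 2 were higher, 7.41% against 7.93%. Together these were 29.6% against 15.9% of all. Calls in this list thus went in both directions, and whether its split differs from that of all miRNAs was not tested. The list of 27 held 4 calls with all 6 libraries, 1 call without sham replicate 1 or without sham replicate 2, 2 calls without sham replicate 3 or without CCI-ION replicate 3, and 0 calls with the replicate number as a block (limma; 154 of all 555 miRNAs had an unadjusted p under 0.05 in that fit).

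Because the miR-190 strands are among the poorest in G and C, other miRNAs with no more G and C than miR-218a-5p were described too. Most of them hold more G and C than the miR-190 strands, and only 9 tested miRNAs, these strands included, lie under 30%. Of 83 other tested miRNAs with at most 38.1% G and C, the value of miR-218a-5p, 5 were lower (6.02%, against 3.42% of all) and none was higher at an adjusted p under 0.05 (limma). At an unadjusted p under 0.05, 23 were lower, 27.7% of this list against 17.5% of all 555, and 4 were higher, 4.82% against 15.5%. With an intensity trend in limma 13 lower passed after adjustment, 15.7% against 7.93% of all, and 1 higher, 1.20% against 7.93%. In both directions together the shares were 32.5% against 33.0% of all unadjusted and 16.9% against 15.9% with the trend. Whether the split of this list differs from that of all miRNAs was not tested. Their median log2 difference was -0.28, against -0.01 over all, and 55 of 83 were below 0. The 5 lower included miR-98-5p and miR-421-5p, the latter at 6.74 ± 1.63 normalized counts in sham rats (SD, n = 3) and listed at 0 in all CCI-ION libraries. A 0 means fewer than 5 reads, a limit close to the sham level of miR-421-5p. The size of its log2 difference, -2.93, is therefore set by the pseudocount. miR-369-3p, the only other miRNA with as little G and C as miR-190b-5p, fell from 2421 ± 601 in sham to 1023 ± 175 in CCI-ION rats (mean normalized count ± SD, n = 3 each; log2 difference -1.23, limma adjusted p = 0.0435). The miRNAs with the next largest differences in this list, miR-547-3p (-2.35), miR-219a-5p (-2.28) and miR-466c-3p (2.28), did not pass and were listed at 0 in 2, 4 and 2 libraries. In place of 5 calls there were 2 without sham replicate 1, without sham replicate 3 or without CCI-ION replicate 3, and 8 without CCI-ION replicate 2. With all 6 libraries the list held 22 calls with upper-quartile scaling and 12 with a mean of at least 10. It held 3 calls after a correction of each library for G and C, and 1 with the replicate number as a block.

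Over the range of G and C, the median log2 difference was -1.23 for the 9 miRNAs under 30%, the miR-190 strands included, -0.25 for 87 from 30% to 40%, and -0.05, 0.07 and -0.05 for 170, 159 and 82 in the higher ranges. Across the 502 miRNAs outside the families, Pearson's r between base composition and log2 difference was 0.11 and Spearman's rho 0.13, a description in which all miRNAs share the same 6 libraries. After each library was corrected for its linear trend with G and C, the log2 difference was -0.82 for miR-218a-5p, -2.13 for miR-190b-5p and -2.02 for miR-190a-5p. The part of base composition in the lower level of the miR-190 guides was not tested beyond this straight line.

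**Figure D3:**
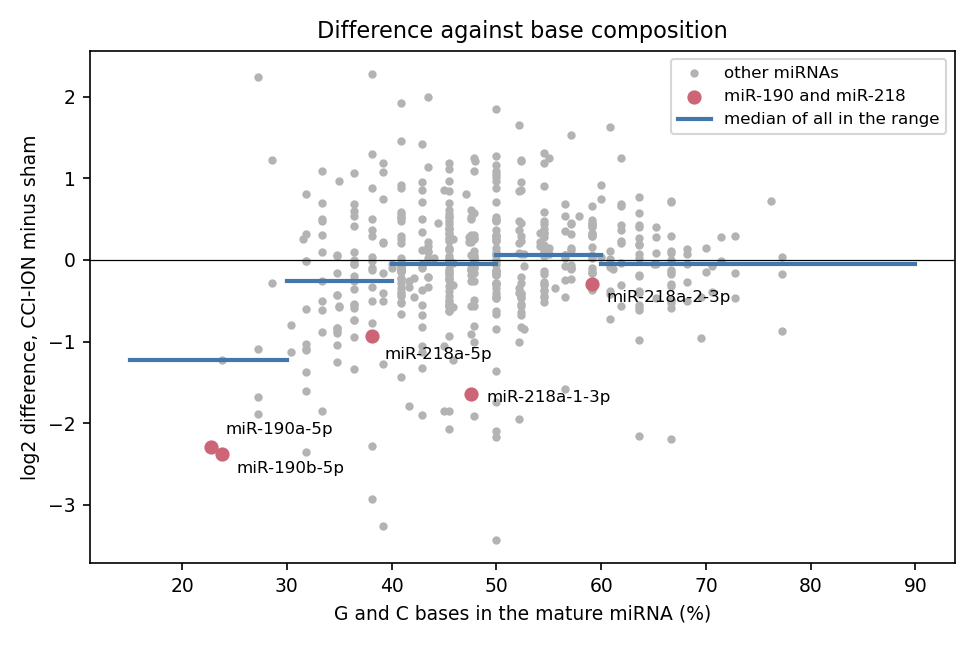
Log2 difference between CCI-ION and sham libraries (y axis) against the share of G and C in the mature sequence (x axis, %), 1 point per miRNA tested with a RefSeq sequence. Blue lines are medians within a range of G and C. The median is -1.23 under 30%, where only 9 miRNAs lie, 7 of them below 0, and between -0.25 and 0.07 elsewhere. Both miR-190 strands lie below the median of their range, which includes them, and they were chosen for their fall.

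Marker miRNAs of several cell types differed between the groups as well. All 5 neuronal marker miRNAs had log2 differences below 0, against 51.2% of the 555 miRNAs tested. The neuronal markers included miR-124-3p, with 58265 to 71422 in the sham group against 36746 to 43263 in the injured group (normalized counts; log2 difference -0.78), and miR-128-3p at -0.91. The groups of miR-9a-5p, which made up most of the sum of these markers, overlapped at 1343560 to 1452410 and 1088340 to 1423840 (log2 difference -0.17), as did those of miR-137-3p (-1.26). Their summed level ranged from 1829530 to 2029010 in sham libraries and from 1348240 to 1743090 in CCI-ION libraries. All marker values are given with the deposited scaling only. With total-count scaling the median log2 difference of all miRNAs moved from -0.01 to 0.17. All 3 oligodendrocyte markers were also below 0, with sums of 9165 to 14031 and 7133 to 7612. Of these, miR-219a-5p was listed at 0 in 4 of the 6 libraries, every CCI-ION library among them. In the opposite direction, all 5 markers of smooth muscle and fibroblasts were above 0, and their sums of 41158 to 57404 in sham and 88151 to 106793 in CCI-ION libraries did not overlap. Most of these sums was miR-143-3p. The groups of miR-199a-3p overlapped, at 4952 to 5567 and 4497 to 7647 (log2 difference 0.26). The 5 markers of pituitary and epithelium were above 0 as well, with sums of 7637 to 11953 and 8610 to 23820. The part of these differences in the lower level of miR-218a-5p, miR-190a-5p and miR-190b-5p was not tested. In bulk tissue, fewer cells of a type and less RNA per cell cannot be told apart.

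Of the neuroendocrine markers, miR-7a-5p and miR-7b were below 0 and miR-375-3p above 0, with sums of 2112400 to 3407000 in sham and 942873 to 1551810 in CCI-ION libraries. The 5 markers of choroid plexus and ependyma were above 0, with sums of 65993 to 90237 and 85001 to 108839. Those of erythrocytes, of which 2 of 3 are listed, summed to 2831 to 3786 and 2898 to 3653, a sum made up mostly of miR-486 (log2 difference -0.08). The other, miR-451-5p, ranged from 137 to 242 in sham and from 366 to 473 in CCI-ION libraries without overlap (log2 difference 1.07). The markers of skeletal muscle summed to 91.4 to 146 and 95.8 to 111. Since miR-218 marks motor neurons, miRNAs of the hindbrain and spinal cord were examined beside it. miR-10b-5p ranged from 120 to 230 normalized counts after sham surgery and reached 243 after CCI-ION (log2 difference 0.56). miR-196b-5p, at 0 in each sham library, reached 6.46 after CCI-ION. The latter could therefore not have been lower after CCI-ION, and the ranges of miR-10b-5p overlapped.

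**Figure D4:**
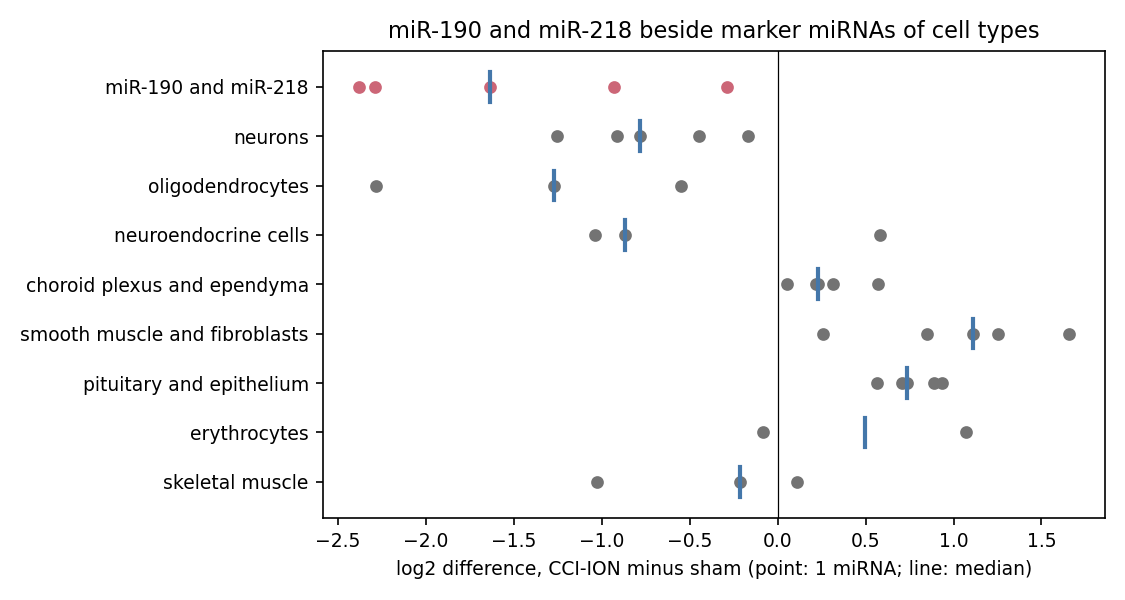
Log2 difference between CCI-ION and sham libraries (x axis) of the miR-190 and miR-218 strands and of marker miRNAs of cell types (rows). Each point is 1 miRNA and each blue line a median. The neuronal and oligodendrocyte markers lie below 0 with the 5 strands, and those of smooth muscle and fibroblasts lie above 0.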

How the data were processed

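miRNAs of the rat ARC were sequenced in 3 sham and 3 CCI-ION libraries, grouped by the sample labels. The authors deposited 1 signal value per mature miRNA and library. Within a library the checked values were whole multiples of a step (100% of them, tolerance 0.1 step), and 1 divided by the step equals a size factor made by the median-of-ratios method. Cutadapt 1.14, Bowtie 1.1.1 and rn6 stand in the submitters' processing notes, without their roles. The counting, the miRNA annotation and the normalization are not given in the sources used here. The submitters' extraction protocol names a TruSeq RNA kit, and how libraries of small RNA were made is not given.

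Values were compared on log2(value + 1) with limma 3.58.1 in R 4.3.3 (two-sided, no covariates, Benjamini-Hochberg over 555 miRNAs with a mean of at least 1, threshold 0.05), and within libraries by exact sign-flip tests. Tables and figures were made in Python 3.11.15 with pandas 2.3.3, numpy 2.4.6, scipy 1.17.1 and matplotlib 3.10.9. Since no listed value above 0 was worth fewer than 5 reads, the recovered reads were not taken as complete raw counts. The count test that the design allowed for raw counts was therefore not used, and the scripts were tested on simulated data.

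The families, the lists and the tests were chosen with earlier results of these data known. Named were all strands of the families, the 3 miRNAs most like each guide, and up to 4 of each list with the largest absolute log2 difference. Others named passed the threshold and were chosen after their values were seen, as were the marker miRNAs singled out. RefSeq sequences (GRCr8) matched 512 of 562 miRNAs. Alternatives were total-count and upper-quartile scaling, scaling without the most abundant miRNA, other filters, a pseudocount of 0.1, an intensity trend, the replicate number as a block, a correction for G and C, 2.5 reads in place of 0 (added after seeing the data), and leaving out each library.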

Additional observations from a re-analysis of the deposited data

How the results depend on the processing

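Over 18 alternatives the 5 strands gave 85 values, all below 0, of which 79 were within 1 SD of the value reported. The other filters, the intensity trend and the replicate block cannot move the log2 difference of a strand that they keep. The families were also selected on the fall of their 5p strands, so these counts are no measure of its stability. For miR-218a-5p the log2 difference was -0.73 with total-count scaling, -1.26 with upper-quartile scaling, and -0.82 with the correction for G and C, alone or with the replicate block. The median of all miRNAs moved to 0.17 and -0.34 with those scalings, and relative to it miR-218a-5p was at -0.90 and -0.92, against -0.92 as reported. miR-190b-5p ranged from -2.72 to -1.84 and miR-190a-5p from -2.60 to -2.02, while miR-218a-1-3p ranged from -2.74 to -0.52 and miR-218a-2-3p from -0.59 to -0.11. Over 8 alternatives each, the level difference ranged from 12.86 to 14.05 between miR-218a-5p and miR-218a-1-3p, from 12.90 to 13.33 between miR-218a-5p and miR-218a-2-3p and from 1.54 to 1.91 between the miR-190 guides, and that between the passenger strands, -0.39 as reported, from -0.91 to 0.28, with 0.21 without CCI-ION replicate 1 and 0.28 in the sham libraries alone. With 5 or 3 libraries the exact sign-flip p cannot go below 0.0625 or 0.25, so the alternatives with fewer libraries are values with no test. The number of miRNAs past the threshold, 38 as reported (19 higher), was 117 with upper-quartile scaling (9 higher), 51 with total counts (42 higher), 49 without the most abundant miRNA (30 higher), 63 with a mean of at least 10, 96 with 10 or more reads per library, 88 with an intensity trend, 20 with the correction for G and C, 3 with the replicate block, 4 with both, and 7 to 42 with a library left out (42 without CCI-ION replicate 2, and 7 to 20 without each of the others). For miRNAs inside genes, 4 as reported, these were 10 with upper-quartile scaling, 8 with at least 10 reads, 8 with the trend, 0 with the block (154 of all 555 miRNAs at an unadjusted p under 0.05), 0 with block and correction, and 1 to 4 with a library left out. For miRNAs with at most 38.1% G and C, 5 as reported, they were 22, 12 with a mean of at least 10, 16 with at least 10 reads, 14 with the trend, 3 with the correction, 1 with the block, 1 with both, and 2 to 8 with a library left out. The cause was not tested. Libraries of like number had correlated deviations of -0.03, 0.19 and -0.01 and are not taken as pairs. The count models listed as alternatives were not run on the normalized values. The 13 reads of miR-190b-5p and 8 of miR-190a-5p in the lowest CCI-ION libraries, and at most 19 reads for the passenger strands, limit the precision of those values.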
